A study of Mus musculus with 4 samples.

Results

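Cytosolic ribosomal protein genes encode the proteins of the ribosome, the particle that translates mRNA in the cytosol. The members were found by symbol alone: symbols starting with Rpl or Rps and a digit, with Rplp0, Rplp1, Rplp2 and Rpsa added. Pseudogenes (-ps), the ribosomal S6 kinases, Rps19bp1 and the paralogues Rpl7l1, Rpl22l1, Rpl3l, Rps27l and Rps4l were left out. The rule found 81 of the 32285 genes counted, 49 of the large subunit and 32 of the small subunit, and used no measured value. Rack1 and Fau, which also encode ribosomal proteins but carry other names, were followed beside them.

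The small subunit reads the mRNA and the large subunit joins the amino acids. Every ribosome needs each protein in about equal number, and the mRNAs of ribosomal proteins are among the most abundant in nearly any cell. Many of them start with a run of pyrimidines, the terminal oligopyrimidine tract, through which mTOR signaling controls their translation. Lymphocytes are known for a large share of these mRNAs, while mature neutrophils carry little RNA and few ribosomes.

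Cells of the left lung lobe of male C57BL/6 mice were profiled by scRNA-Seq. Young mice had an age of 2 to 3 months and aged mice of 22 months, and at each age there was a nonventilated library and a library of mice ventilated for 3 h at a tidal volume of 20 mL/kg. The labels give a diet gradually cut to 70% of free feeding and do not separate the ages. The methods describe it for the aged mice, so that a difference in diet cannot be told apart from age. The ventilated mice also had ketamine, medetomidine, buprenorphine and oxygen, whereas the nonventilated mice were naive, so that ventilation cannot be told apart from anesthesia, analgesia and oxygen here. Each library pooled the cells of 3 mice, digested and cryopreserved before loading. Because each group was 1 library, no test between groups was possible and none was run. The 95% intervals given cover counting error only, not the spread between mice or between cells.

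Of 15428 barcodes, 9514 passed the filters, with 1960 to 2750 cells and medians of 7237 to 8371 UMIs (unique molecular identifiers, each marking 1 captured transcript) per library. No pair of libraries shared more than 3 of the barcodes kept. Clustering gave 30 clusters. They were named by markers of lung cell types, called here with the ending "-like", and clusters of the same name were joined into 25 classes. A cluster of 311 cells stayed unnamed, and the B-like cluster had the plasma cell gene Igha among its leading genes. The shallow general capillary-like cluster of 347 cells was led by the club cell gene Scgb1a1. A general capillary-like cluster of 926 cells and an alveolar fibroblast-like cluster of 565, both mostly from ventilated libraries, had no class marker among their leading genes. A level is given in CPM, UMIs of the gene per 1000000 UMIs of the cells in question. UMIs were counted at the 3′ end of transcripts and thus are not divided by gene length. Differences are log2 ratios of CPM, computed after 1 UMI was added to both sums, for genes whose level averaged 50 CPM or more in the libraries compared. A gene was counted as higher or lower when it lay past 0.5 on the log2 scale. In sums over all cells, fewer cells of a type and less RNA per cell cannot be told apart.

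The start sites below are shown because the pyrimidine tract is the feature through which these mRNAs are controlled together. RefSeq promoters on GRCm38.p6 matched 61 of the 81 members. A tract was scored where the first transcribed base was C and at least 4 more pyrimidines followed, read on the strand of the gene. It stood at 14 of the 71 member promoters (19.7%) and at 823 of all 32851 promoters (2.51%). A run that began a few bases from the annotated start was not scored, as in Rpl18, Rpl12 and Rps26. Members with a tract can thus be missed by this score. Each line holds 30 bases before the annotated start and 20 from it on, and capitals mark the tract. Rpl38 was at chr11:114668550-114668599 (+), Rps27 at chr3:90213629-90213678 (-), Rps21 at chr2:180257349-180257398 (+), Rpl35 at chr2:39005112-39005161 (-) and Rps6 at chr4:86857348-86857397 (-). Rps28 at chr17:33824543-33824592 (-), Rpl36al at chr12:69184048-69184097 (-) and Rps2 at chr17:24720033-24720082 (+), to which the results below return, had no tract at the annotated start.
Rpl38: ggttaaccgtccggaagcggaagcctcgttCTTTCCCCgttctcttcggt
Rps27: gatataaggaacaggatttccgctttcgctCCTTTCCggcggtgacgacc
Rps21: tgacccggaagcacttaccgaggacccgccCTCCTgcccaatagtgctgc
Rpl35: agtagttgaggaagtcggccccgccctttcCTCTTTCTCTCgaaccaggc
Rps6: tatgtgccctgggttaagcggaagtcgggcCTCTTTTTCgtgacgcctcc
Rps28: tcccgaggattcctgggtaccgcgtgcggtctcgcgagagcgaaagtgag
Rpl36al: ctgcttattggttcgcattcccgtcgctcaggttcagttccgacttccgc
Rps2: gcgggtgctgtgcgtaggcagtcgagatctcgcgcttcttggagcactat

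Some members are near copies of each other. The first 150 coding bases of Rpl36a and Rpl36al, from GENCODE vM21 transcripts, are shown because the mRNAs of this pair differed in opposite directions over all cells after ventilation. Capitals mark the 23 bases in this stretch that differ between the copies. Over the whole coding sequence, 279 of 318 bases were identical (87.7%). The pair Rpl39 and Rpl39l was 85.0% identical and the pair Rpl10 and Rpl10l 84.7%. Rps27 and Rps27rt were identical over all 252 coding bases, so that the counts of this pair are uncertain.
Rpl36a: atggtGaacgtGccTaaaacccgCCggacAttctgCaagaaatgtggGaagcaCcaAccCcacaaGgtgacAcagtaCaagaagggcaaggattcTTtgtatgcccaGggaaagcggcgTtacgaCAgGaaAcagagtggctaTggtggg
Rpl36al: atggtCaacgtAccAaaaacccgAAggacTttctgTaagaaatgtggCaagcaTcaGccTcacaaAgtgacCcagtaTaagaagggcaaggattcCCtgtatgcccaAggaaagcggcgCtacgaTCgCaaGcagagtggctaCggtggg

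The members took 8.64% of all UMIs without and 6.39% with ventilation in the young libraries and 8.11% without and 7.64% with it in the aged ones. The young ventilated library thus stood lowest, and the aged libraries lay close to each other in these sums. Medians over single cells were 6.95% without and 4.87% with ventilation in the young and 6.58% and 5.47% in the aged libraries. Over all barcodes, before the filters, the shares were 8.20% and 6.61% in the young and 7.88% and 8.17% in the aged libraries. With the share of every cell class held at its value over all libraries, the shares were 8.67%, 6.91%, 7.66% and 7.57% in the same order. UMIs of large subunit members outnumbered those of small subunit members 1.22, 1.24, 1.21 and 1.21 times. Only 1 cell in each nonventilated library had no member UMI.

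Cell classes spanned a wider range than libraries. B-like cells led with 19.2% of their UMIs on members, ahead of T- or NK-like cells (17.0%), dendritic-like cells (15.8%) and classical monocyte-like cells (11.6%). At the other end stood neutrophil-like cells with 1.45%, below alveolar type I-like (2.85%), pericyte-like (3.16%), aerocyte-like (4.03%) and general capillary-like cells (4.46%). The 4 libraries of a class spanned 16.7% to 22.0% in B-like cells, 13.7% to 18.6% in T- or NK-like cells and 14.8% to 18.6% in dendritic-like cells, so that the order among these 3 was not kept in every library. Neutrophil-like cells lay between 1.13% and 2.19% and below alveolar type I-like cells (2.40% to 3.11%) in all libraries.

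**Figure D1:**
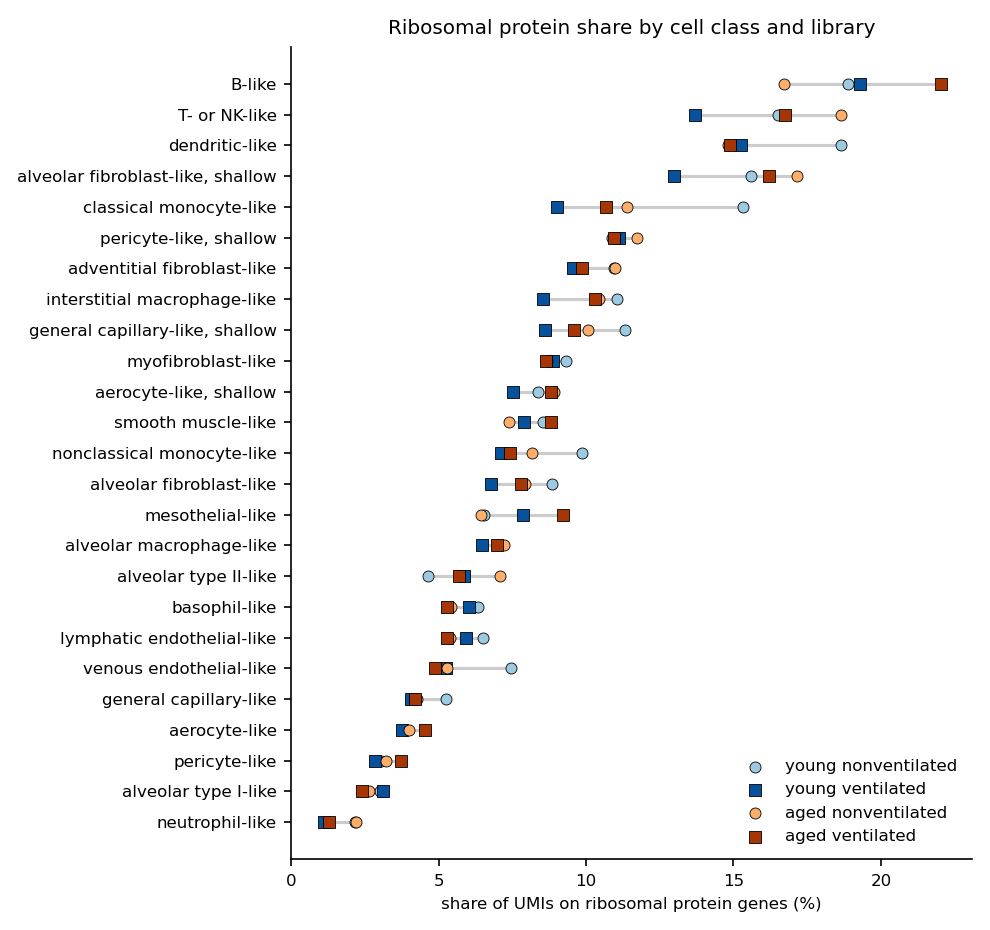
Share of UMIs on the 81 members (x axis, %) in each of the 25 cell classes (y axis), 1 point per library, circles nonventilated and squares ventilated, blues young and orange and brown aged, with a gray line from the lowest to the highest library. B-like cells sit at 16.7% to 22.0% and neutrophil-like cells at 1.13% to 2.19%.

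For 4 cell types, a separate cluster of shallow cells carried a larger share than the deeper cells of the same name. The shares were 15.5% and 7.66% in shallow and deeper alveolar fibroblast-like cells, 11.1% and 3.16% in pericyte-like, 9.91% and 4.46% in general capillary-like, and 8.17% and 4.03% in aerocyte-like cells. The shallow clusters had medians of 925 to 1555 UMIs per cell and of 0.0648% to 0.114% of UMIs on Malat1, a nuclear long noncoding RNA, beside 2.27% to 6.71% in the deeper cells. Within the deeper classes, too, the member share and the Malat1 share of single cells ran in opposite directions, with Spearman's rho from -0.14 in basophil-like to -0.68 in alveolar type II-like cells (a description across the cells of each class, which share libraries). The part of nuclear RNA or of damaged cells in these shares was not tested.

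Across the 19 classes with at least 20 cells in every library, the share was highest in the young nonventilated library in 9 classes, in the aged nonventilated library in 6 and in the aged ventilated library in 4. It was lowest in the young ventilated library in 14 of the 19. In venous endothelial-like cells, for example, the shares were 7.45% without and 5.25% with ventilation in the young libraries and 5.29% without and 4.88% with it in the aged ones, which sets the first apart from the other 3. The same 4 libraries gave 18.9%, 19.3%, 16.7% and 22.0% in B-like cells, where the aged ventilated library was highest.

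Among the members, the mRNA of the acidic stalk protein Rplp1 had the highest mean level, at 2176 CPM in the young nonventilated, 1819.9 CPM in the young ventilated, 2210.4 CPM in the aged nonventilated and 1932 CPM in the aged ventilated library. Rps29, Rps24 and Rpl13 were also among the highest. Rplp0 and Rplp2, its partners in the stalk that recruits elongation factors, ranked at 1014 and 1050 CPM in the young nonventilated library. At the low end, Rpl10l had 0, 0, 1 and 1 UMIs and Rpl39l 3, 19, 2 and 3 UMIs in the libraries in the same order. Neither reached the minimum of 50 CPM, so that 79 members entered the comparisons. The other members of lowest level were Rps27rt (42.1 to 70.3 CPM), Rpl31 (262 to 338 CPM) and Rpl36al (291 to 415 CPM).

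After ventilation of young mice, the median log2 ratio of the 79 members was -0.39, beside -0.01 over all 4148 genes compared. Members below 0 numbered 77 of 79, with intervals that left out 0. Past the fold, 21 members were lower, where 18.1% of all genes were, and 0 were higher, where 17.9% of all genes were. The lower members were 26.6% of those compared, and Rps27rt (70.3 and 42.1 CPM) reached the minimum only through the nonventilated library. The medians of large and small subunit members were -0.38 and -0.40. With class shares held, an alternative chosen after seeing the data, the median was -0.28 and 12 members were lower.

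After ventilation of aged mice, the median was -0.08, beside -0.07 over all 4138 genes. Its sign turned with no upper limit on UMIs per cell (0.032) and with that limit set over all barcodes (0.019). Only Rpl36al was higher past the fold (background 11.5%) and 0 members were lower (background 14.6%). As reported, 63 of the 79 members lay below 0, and 78 were more negative in the young than in the aged comparison. Over the 79 members, the young and aged log2 ratios, which share no library, had a Spearman's rho of 0.51, a description across genes that share libraries and depth.

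Between the nonventilated libraries, the median of aged over young was -0.05 (all genes 0.01), and 0 members were lower past the fold (background 1.67%). With class shares held, the median was -0.14. Relative to the other genes of the same class, the members lay lower by at least 0.1 in 12 of 21 classes and higher by as much in 2, and the median of the short members was below that of the longest ones in 21 of 21. Between the ventilated libraries, the median was 0.23 (all genes -0.02), 78 of 79 members lay above 0, and 5 were higher past the fold, a share of 6.33% and thus near the background of 6.03%. With class shares held, the median was 0.10 and 0 members were higher. The 5 were Rps27, Rpl39, Rps28, Rps27rt and Rps29, each with at most 252 coding bases. Rps27rt (42.1 and 60.6 CPM) reached the minimum only through the aged ventilated library, which leaves 4 without it.

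Length set the members apart in the young comparison. The 11 members with at most 300 coding bases, of which 10 passed the minimum, had a median of -0.85 after ventilation of young mice. Members of 301 to 450 bases had -0.45, those of 451 to 600 bases -0.35 and longer ones -0.33. Spearman's rho between coding length and log2 ratio was 0.59 over the 79 members, a description across genes. Genes that are no members showed a smaller step in the same direction, from -0.14 in 128 genes of at most 300 bases to 0.00 in 3413 genes of over 600 bases. In the aged comparison, the medians of the shortest and longest members were -0.08 and -0.07, and those of the other genes 0.09 and -0.10.

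Rps28, a small protein near the mRNA exit of the small subunit, had the most negative value. Its level was 1341 CPM in the young nonventilated, 666 CPM in the young ventilated, 1056 CPM in the aged nonventilated and 979 CPM in the aged ventilated library. The young libraries differed by -1.01 (95% counting interval -1.04 to -0.98) and the aged ones by -0.11 (-0.14 to -0.08). The young ventilated library was low, and the young nonventilated library was also above both aged ones. Rps28 (chr17:33819027-33824562) overlaps Kank3 on the other strand.

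Rps29 is a zinc-binding protein of the small subunit. Its CPM was 2515 in the young nonventilated library, 1327 in the young ventilated library, 1891 in the aged nonventilated library and 1908 in the aged ventilated library. Rpl39, at the exit tunnel for the new chain, had 1379.6, 730.4, 1159 and 1090.0 CPM in the same order. Log2 ratios were -0.92 in the young and 0.01 in the aged comparison for Rps29, and -0.92 and -0.09 for Rpl39. Rpl38, known from mice with homeotic patterning defects, had -0.83 and -0.08. Rps21 and Rps27 each had -0.87 in the young comparison, with -0.17 and 0.08 in the aged one.

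The shortest member was an exception. Rpl41, with 75 coding bases, encodes a peptide of the subunit interface, and its level was 1847 CPM in the young nonventilated, 1348 CPM in the young ventilated, 1576 CPM in the aged nonventilated and 1547 CPM in the aged ventilated library. A log2 ratio of -0.45 in the young comparison left it near the median of all members rather than of the short ones. Among longer members, Rps4x (789 coding bases) had -0.64 and the 5S RNA partners Rpl5 and Rpl11, which also bind Mdm2, had -0.33 each.

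**Figure D2:**
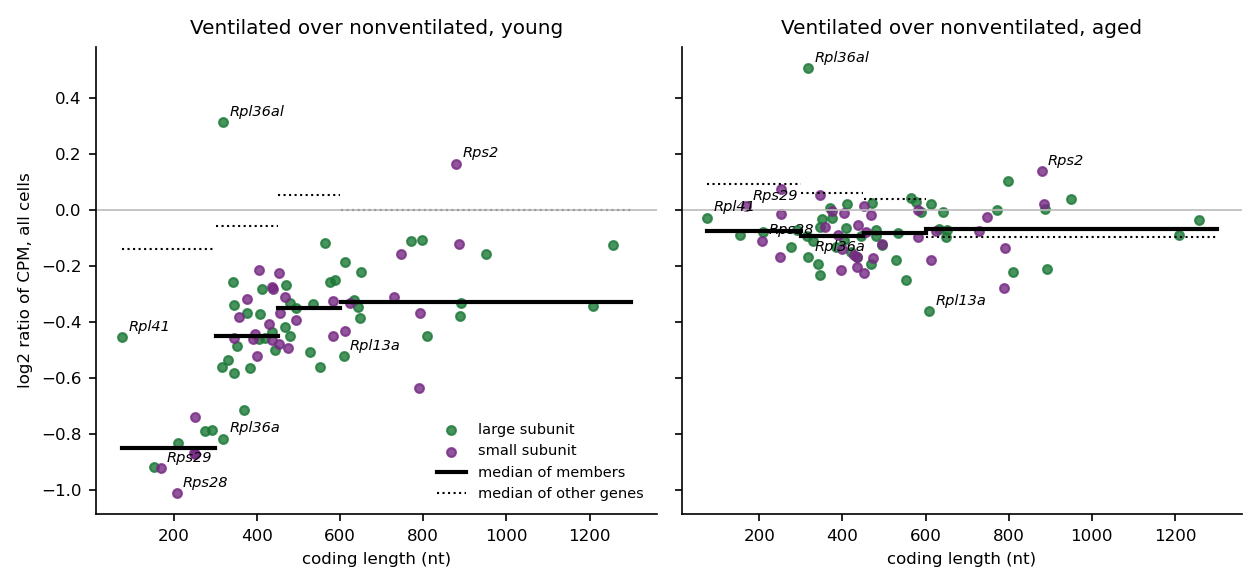
Log2 ratio of CPM, ventilated over nonventilated, over all cells (y axis) against coding length in nucleotides (x axis) for the 79 members tested, young on the left and aged on the right, large subunit members green and small subunit members purple. Solid bars are medians of members and dotted bars medians of other genes by length; in the young panel members of at most 300 bases have a median of -0.85, and in the aged panel -0.08.

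As a share of member UMIs, the 11 short members took 17.1% without and 13.1% with ventilation in the young libraries and 14.8% without and 15.1% with it in the aged ones. This order of the young libraries held in every class examined. Of the 19 classes, the young nonventilated library was highest in 19 and the young ventilated library lowest in 18. In neutrophil-like cells, the exception, the shares were 23.3%, 20.3%, 20.0% and 22.2%, with the aged nonventilated library lowest. Since the share is taken within the members, a scale common to all members drops out of it. That every class shows it also means that a property of a whole library cannot be told apart from a response of the cells.

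**Figure D3:**
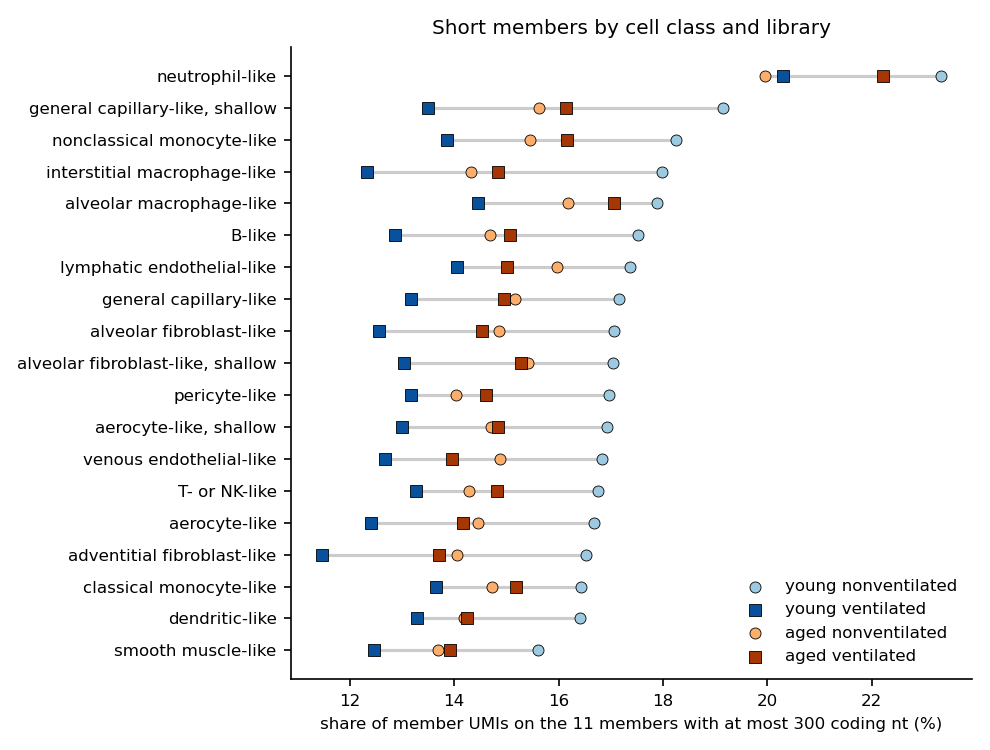
Share of member UMIs on the 11 members with at most 300 coding bases (x axis, %, not starting at 0) in the 19 classes with at least 20 cells in every library (y axis), 1 point per library. The young nonventilated library is the rightmost point in 19 of 19 classes, and the young ventilated library the leftmost in 18.

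The members were also compared by the pyrimidine tract as scored at the annotated start. In the young comparison, the median was -0.43 over the 14 members with the tract at the annotated start and -0.37 over 45 tested members without it. The latter included Rpl27a, Rpl7a and Rps24, with runs of 16, 7 and 6 pyrimidines from an annotated T. They also included Rpl18, Rpl12 and Rps26, with runs that began a few bases past the annotated start. The split thus follows the annotated base, and the part of the tract in these ratios was not tested. Rpl35 and Rps6, both printed above with a tract, had -0.71 and -0.16. Rps6, the substrate of the S6 kinases, was at 603 CPM in the young nonventilated, 541 CPM in the young ventilated, 595 CPM in the aged nonventilated and 585 CPM in the aged ventilated library. Rps28, with the most negative ratio, has no tract at its annotated start. In the aged comparison, the medians were -0.07 with and -0.07 without the tract.

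Only Rpl36al and Rps2 lay above 0 in the young comparison. Rpl36al (chr12:69182731-69184083, minus strand) and Rpl36a (chrX:134585654-134588062, plus strand) encode near-identical large subunit proteins. Rpl36al was at 291 CPM in the young nonventilated, 362 CPM in the young ventilated, 292 CPM in the aged nonventilated and 415 CPM in the aged ventilated library, so that both ventilated libraries were above both nonventilated ones. Rpl36a was at 522, 296, 447 and 397 CPM in the same order. The log2 ratios of Rpl36al were 0.31 (0.27 to 0.36) in the young and 0.51 (0.46 to 0.56) in the aged comparison, and those of Rpl36a -0.82 (-0.86 to -0.77) and -0.17 (-0.21 to -0.12).

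Rpl36al was above 0 in 18 of 18 classes in the young and in 17 of 18 in the aged comparison, with dendritic-like cells at 0.00 and -0.01. Rpl36a was below 0 in 17 of 18 young but only in 12 of 18 aged classes, where intervals lay below 0 in 6 and above 0 in 3. In classical monocyte-like cells the level of Rpl36al was 909 CPM in the young nonventilated, 1045 CPM in the young ventilated, 651 CPM in the aged nonventilated and 1156 CPM in the aged ventilated library. Rpl36a was at 670.1, 262, 404 and 352 CPM in the same cells. Thus Rpl36al was above Rpl36a in all 4 libraries there, while in general capillary-like cells it was below it, at 144, 183, 130.4 and 183 CPM beside 341, 195, 252 and 242 CPM. Reads from the coding part of these copies could be split between them by the counting, which was not tested.

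Rps2, whose protein lines the mRNA entrance of the small subunit, was at 860.0 CPM in the young nonventilated, 965 CPM in the young ventilated, 871 CPM in the aged nonventilated and 959 CPM in the aged ventilated library. The log2 ratios were 0.17 (0.14 to 0.19) and 0.14 (0.11 to 0.17). Rps2 was above 0 in 17 of 19 classes at each age and above the median of the members in all 19 in the young comparison. Of these classes, the largest young ratio was in nonclassical monocyte-like cells, at 0.66, with 709 CPM in the young nonventilated and 1117 CPM in the young ventilated library. Neutrophil-like cells had -0.62 at both ages, and classical monocyte-like cells -0.33 in the young. Rps2 (chr17:24718116-24721929) overlaps the noncoding gene Snhg9 on the other strand.

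**Figure D4:**
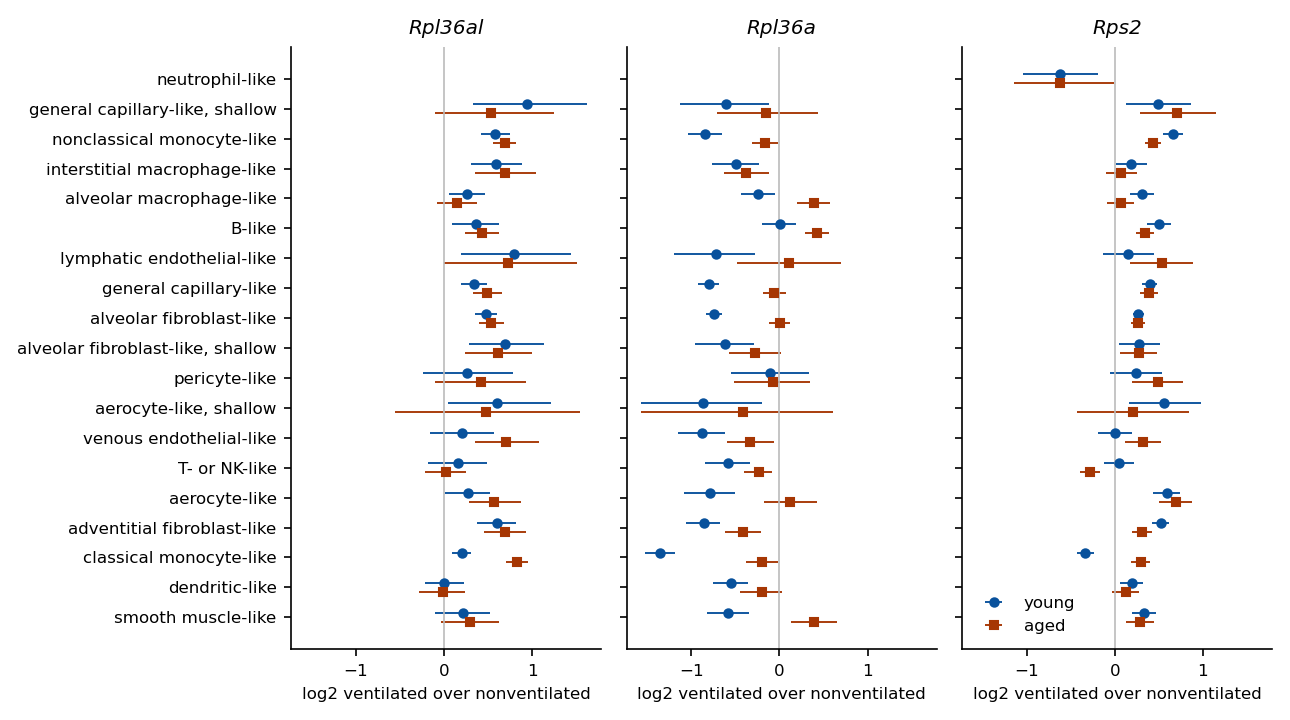
Log2 ratio of CPM, ventilated over nonventilated (x axis), of Rpl36al, Rpl36a and Rps2 in each cell class (y axis), blue circles young and brown squares aged, with 95% counting intervals as bars. Rpl36al is above 0 in 18 of 18 classes in the young and Rpl36a below 0 in 17 of 18; neutrophil-like cells are drawn for Rps2 alone, since the other 2 did not reach the minimum level there.

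Other members stood below the median of the members at both ages. Rpl13a, known for its part in silencing inflammatory mRNAs, was at 1103 CPM in the young nonventilated, 768 CPM in the young ventilated, 1117 CPM in the aged nonventilated and 869.6 CPM in the aged ventilated library. Both ventilated libraries were below both nonventilated ones, with log2 ratios of -0.52 and -0.36, the latter the lowest of all members in the aged comparison. Rps4x had -0.64 and -0.28, and Rpl17 -0.56 and -0.25. Relative to the median of the members of the same class, Rpl13a was below it in 17 of 19 classes at each age, Rps4x in 16 of 19 at each age, and Rpl17 in 17 young and 19 aged classes.

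Neutrophil-like cells differed from other classes both in level and in make-up. Their member share was 2.17% in 122 young nonventilated, 1.13% in 223 young ventilated, 2.19% in 59 aged nonventilated and 1.28% in 256 aged ventilated cells. Both ventilated libraries were below both nonventilated ones. The median log2 ratio of the members was -0.94 in the young (70 tested) and -0.90 in the aged comparison (74 tested), beside -0.33 and -0.35 over all genes. Lower past the fold were 63 of 70 members (background 41.6%) and 62 of 74 (background 42.7%). Members of low level could reach the minimum through the nonventilated library alone. The summed share of all 81 members, which uses no minimum, differed by -0.95 and -0.77 on the log2 scale. With size factors from genes that are no members, the medians were -0.65 and -0.57. The ratio of large to small subunit UMIs was 1.05 and 1.13 in the nonventilated and 0.914 and 0.908 in the ventilated libraries. Median mitochondrial shares of these cells lay between 0.253% and 0.309%.

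Rps9 took 9.18% of all member UMIs in neutrophil-like cells, with libraries between 6.87% and 10.6%, beside a median of 1.37% over the other 23 classes examined. Rps9 encodes a protein at the mRNA entry of the small subunit. Its level there was 1651 CPM in the young nonventilated, 1188 CPM in the young ventilated, 1502 CPM in the aged nonventilated and 1285 CPM in the aged ventilated library. Its log2 ratios after ventilation, -0.48 and -0.23, were less negative than the medians of the members. Rps27 (4.71% beside 1.50%), Rps27a (4.26% beside 1.53%), made as a fusion with ubiquitin, and Rpl37 (2.86% beside 1.14%) were also above the median of the other classes in all 4 libraries. Rps9 was likewise above it in alveolar macrophage-like (2.46%), classical monocyte-like (2.42%), nonclassical monocyte-like (2.06%) and interstitial macrophage-like cells (1.76%). So were Rps27a in classical (2.44%) and nonclassical monocyte-like cells (2.37%), and Rps27 in B-like (2.43%) and nonclassical monocyte-like cells (2.19%).

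At the other end, Rpl10a took 0.114% of member UMIs in neutrophil-like cells, beside 0.698% elsewhere, from 53 UMIs in all. Rpl12 (0.175% beside 0.766%), Rps18 (0.259% beside 1.04%), Rps20 (0.555% beside 1.75%), Rpsa (0.464% beside 1.45%) and Rps4x (0.428% beside 1.30%) were below the median of the other classes in all 4 libraries. Rps9 UMIs outnumbered Rpl10a UMIs 80.2 times, beside 1.23 to 6.76 times in the other 23 classes. This pair was chosen after seeing the values, as the highest and the lowest of the 79 members relative to the other classes, so that a wide ratio follows from the choice. In all, 21 of 79 members lay more than 1 on the log2 scale from their median share in the other classes, 5 above and 16 below. Basophil-like cells, a class of 66 cells, had 9 such members, and no other class more than 1.

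**Figure D5:**
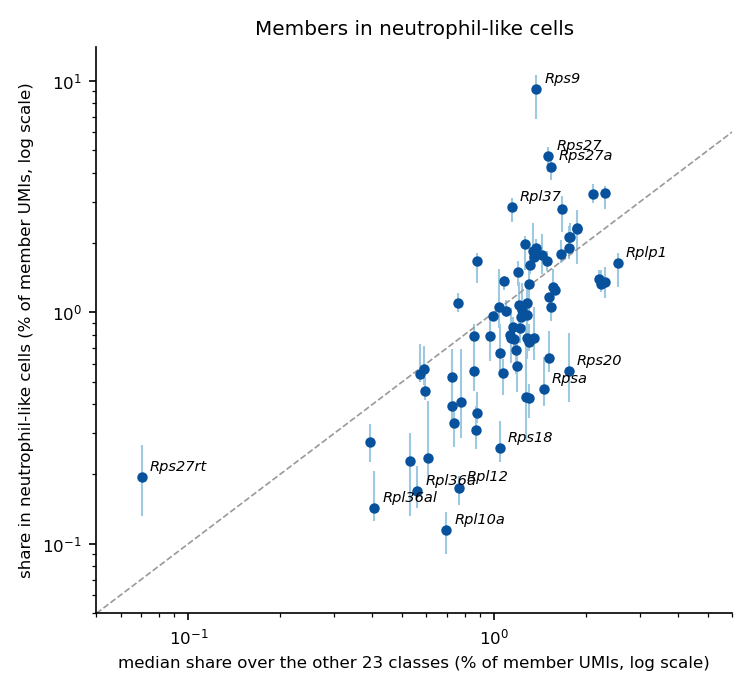
Share of member UMIs of each member in neutrophil-like cells (y axis, %, log scale) against its median share over the 23 other classes (x axis, %, log scale), with bars from the lowest to the highest of the 4 libraries and a dashed line of equality. Rps9 stands above the line at 9.18% and Rpl10a below it at 0.114%.

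Smaller differences were seen in other classes, each on the same side of the median of the remaining classes in all 4 libraries. Rps19, the gene mutated in Diamond-Blackfan anemia, took 3.50% of member UMIs in alveolar type I-like and 3.23% in alveolar type II-like cells, beside a median of 1.51% elsewhere. Alveolar macrophage-like cells were high in the stalk genes Rplp1 (4.91% beside 2.52%) and Rplp2 (2.43% beside 1.20%) and low in Rpl21 (0.759% beside 1.51%). Rplp1 was also high in alveolar fibroblast-like (3.69%) and adventitial fibroblast-like cells (3.13%), and took 1.41% in classical monocyte-like and 1.63% in nonclassical monocyte-like cells. Aerocyte-like cells were high in Rpl31 (0.766% beside 0.383%). Rpl31 was also high in alveolar type I-like (0.620%), general capillary-like (0.581%), venous endothelial-like (0.564%) and lymphatic endothelial-like cells (0.491%).

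Rpl12 and Rps15a had a large share in both lymphocyte classes. Rpl12 took 1.21% of member UMIs in B-like and 1.31% in T- or NK-like cells, beside 0.738% elsewhere, and Rps15a 1.88% and 1.86%, beside 1.18%. Rpl12 was also above that median in all 4 libraries of myofibroblast-like (1.11%), smooth muscle-like (0.970%) and adventitial fibroblast-like cells (0.926%). Rpl36al reached 0.831% in classical monocyte-like cells, the most of any class, with libraries from 0.571% to 1.16%. The alveolar type II-like class held 53 cells, 4 of them in the aged ventilated library.

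Classical monocyte-like cells had member shares of 15.3% without and 9.02% with ventilation in the young libraries and 11.4% without and 10.7% with it in the aged ones. The median log2 ratio of the members was -0.76 in the young comparison, where 70 of 79 members were lower (background 22.7%), and -0.10 in the aged one. Different clusters held this class in nonventilated and ventilated libraries, and a further cluster of 115 cells, 62 of them young ventilated, had only 0.793% to 4.05% of UMIs on members, with medians of 3910 UMIs and, over the libraries, of 5.21% to 7.83% mitochondrial UMIs. Without it, an alternative chosen after seeing the data, the medians were -0.55 and -0.18. General capillary-like and alveolar fibroblast-like cells were also held by different clusters in nonventilated and ventilated libraries, with medians of -0.30 and -0.34 in the young and -0.02 and -0.03 in the aged comparison.

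Among classes with at least 20 cells in both libraries, the median over members was below 0 in 17 of 21 in the young comparison and in 14 of 19 in the aged comparison. Set against the median of the other genes of the class, it was lower in 17 of 21 young but only in 11 of 19 aged comparisons, and in the latter lower by at least 0.1 in 3 classes and higher by as much in 4. It was above 0 in 17 of 19 when the aged ventilated was set against the young ventilated library. Venous endothelial-like cells had -0.47 after ventilation of young mice, with 37 of 79 members lower (background 23.4%), and -0.48 for aged over young without ventilation, with 38 of 79 lower (background 9.58%). These comparisons share the young nonventilated library. Nonclassical monocyte-like cells had -0.44 in the young, with 35 of 79 lower (background 26.8%), and -0.13 in the aged comparison. In B-like cells the aged comparison gave 0.40, with 79 of 79 members above 0 and 9 higher past the fold (background 6.68%).

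Ribosomal protein genes outside the naming rule had values in the same range. Fau was at 2073 CPM in the young nonventilated, 1475 CPM in the young ventilated, 2001 CPM in the aged nonventilated and 1948 CPM in the aged ventilated library. Log2 ratios in the young and aged comparisons were -0.49 and -0.04 for Fau and -0.33 and -0.23 for Rack1, a scaffold on the small subunit. Of 16 translation factors and other genes with pyrimidine-start mRNAs, 3 were lower in the young comparison (Eif3f -0.83, Vim -0.69 and Eif4b -0.54) and 0 higher, with a median of -0.22. The count lower is near the background of 18.1%. Their median was -0.07 in the aged comparison, with 1 lower (Vim -0.65), where 14.6% of all genes were.

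Most genes that build ribosomes were below the minimum level. Of 22 biogenesis genes, 7 reached it in the young comparison, and 5 of these were higher past the fold, where 17.9% of all genes were. Of the 5, however, Gnl3 (1.54), Nop56 (1.10), Wdr43 (1.08) and the rRNA methyltransferase Fbl (0.78) were under 50 CPM in the nonventilated library and reached the minimum only through the ventilated one, so that nothing is read from the count. Nucleolin, Ncl, passed in both libraries, with 282 CPM in the young nonventilated, 463 CPM in the young ventilated, 295 CPM in the aged nonventilated and 347 CPM in the aged ventilated library, or 0.71 and 0.23 on the log2 scale. Nop58 had 0.27 and -0.48, and Ubtf -0.41 and -0.20. In the aged comparison, 2 of 6 were higher (background 11.5%), Gnl3 (0.91) and Wdr43 (0.78), again through the ventilated library alone.

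Of 78 mitochondrial ribosomal protein genes, only 12 reached the minimum in each ventilation comparison, with medians of -0.03 in the young and 0.05 in the aged. Among 11 regulators, 6 were tested: Larp1, which binds pyrimidine-start mRNAs, had 0.76 and 0.41 in the young and aged comparisons, Larp4 0.77 and 0.28, Eif4ebp1 0.07 and 0.69, Eif4ebp2 -0.78 and -0.23, and the glucocorticoid target Tsc22d3 -1.04 and -0.00. Rptor had -0.03 and -0.27. Of the paralogues and kinases left out by the naming rule, 1 of 5 tested was higher in the young comparison (Rpl7l1, 0.50), where 17.9% of all genes were. In the aged comparison 0 of 4 were higher (background 11.5%).

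Over 85 combinations of class and library, the genes most like the member share were Eef1b2 (Pearson's r of log2 values 0.954), Rack1 (0.934), Gm2000 (0.930), Tpt1 (0.925) and Eef1a1 (0.920) among 4088 genes that are no members. Snrpg, Gm11808, Eif3f, Uqcrh and Nsa2 followed, down to 0.880. The median over all genes that are no members was 0.02. Members themselves had a median of 0.957 over 79, and the lowest were Rps9 (0.735) and Rps27rt (0.811). These are descriptions over points that share libraries and classes. Members belong to the set whose share was used, so that their values cannot be set directly against those of other genes.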

How the data were processed

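Pooled left lung lobes of 4 groups were profiled by 10x 3′ scRNA-Seq, 1 library per group. The authors deposited raw counts of UMIs per gene and barcode, made with Cell Ranger 7.0.0 on mm10. Total counts were 40655452 to 45218176 UMIs per library, which limits the precision of low members. Kept barcodes had 200 to 5000 genes, no more than 10% of UMIs from mitochondrial genes and up to 21021 UMIs, the 93rd percentile. Cells were clustered with Seurat 5.3.0 (R 4.3.3) on 2000 variable genes, none of them a member, and 37 components at resolution 0.5. Clusters were named by listed markers under a rule set after the clusters were seen, with shallow clusters kept apart. No doublet caller was run.

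Raw counts were summed by library and class in Python 3.11.15. With 1 library per group no test was run. Exact 95% binomial intervals of ratios cover counting error only, and the scripts were tested on simulated data. Coding lengths came from GENCODE vM21, which matched 32158 of 32285 genes, and promoters from RefSeq on GRCm38.p6. Named members were the 5 with the highest and the 5 with the lowest level, the 3 with the highest and the 3 with the lowest ratio per comparison, the 5 with the widest range of share over classes, listed roles and paralogue pairs, and others named by class share or ratio were chosen after their values were seen. The members and gene lists were chosen with earlier results of these data known. Alternatives changed the cell filters, resolution, depth, normalization, minimum level and fold. Values of some genes are not reported here.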

Additional observations from a re-analysis of the deposited data

Results flagged for a closer look

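Among classes with at least 20 cells in every library, the summed members of 3 differed in opposite directions after ventilation at the 2 ages, with intervals that left out 0. The difference between the ages was not tested, since each group was 1 library. The intervals leave out the spread between cells. Libraries held 39 to 87 smooth muscle-like, 52 to 90 pericyte-like and 86 to 151 aerocyte-like cells. In aerocyte-like cells, the log2 ratio of the member share was -0.05 (-0.07 to -0.04) in the young and 0.18 (0.16 to 0.20) in the aged comparison, a difference of 0.231. Pericyte-like cells had -0.10 (-0.13 to -0.07) and 0.21 (0.18 to 0.24), which differ by 0.309. Smooth muscle-like cells had -0.11 (-0.13 to -0.09) and 0.25 (0.23 to 0.27), which differ by 0.363. Alveolar type II-like cells, with 4 to 18 cells per library, were left out, and their member shares were 4.65% without and 5.87% with ventilation in the young and 7.07% and 5.69% in the aged libraries.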

How the results depend on the processing

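No paired analysis was possible because each group was 1 library, and no replicate could be left out. Values near 0 changed sign under some alternatives: the aged medians over all cells and over classical monocyte-like, nonclassical monocyte-like and general capillary-like cells, and the aged ratios of Rps28, Rps29 and Rpl39. So did the young median in B-like cells (0.07, with alternatives from -0.33 to 0.21) and the aged gap of short to longer members. The aged over young ratios of Rps2 with ventilation and of Rpl36al and Rpl13a without it also changed sign. The median log2 ratio of the members after ventilation of young mice (-0.39) was -0.33 with no upper limit on UMIs, -0.34 with the percentile taken over all barcodes, -0.37 with at most 5% mitochondrial UMIs, -0.46 with cells thinned to 1000 UMIs, -0.43 as a mean over cells, -0.43 per UMIs of genes neither members nor mitochondrial, and -0.38 with median-of-ratios size factors from genes that are no members. The aged median (-0.08) was 0.032, 0.019, -0.074, -0.10, -0.11, -0.091 and -0.0087 in the same order, and -0.076 with no minimum level, so that its sign depended on the UMI limit. For aged over young without ventilation (-0.05), the median was -0.027 with no upper limit, -0.033 with the percentile over all barcodes, -0.043 thinned, -0.023 as a mean over cells, -0.062 per UMIs of the other genes and -0.063 with size factors. With ventilation (0.23), the same 6 gave 0.31, 0.30, 0.30, 0.27, 0.25 and 0.25, beside 0.21 with at most 5% mitochondrial UMIs and 0.22 in cells with at least 2000 UMIs. The gap of short to longer members in the young (-0.52) was -0.54 with no upper limit, -0.53 with the percentile over all barcodes, -0.52 with at most 5% mitochondrial UMIs, -0.60 thinned, -0.59 as a mean over cells and -0.51 with no minimum level. The 21 members lower in the young were 35 after thinning and 66 at a fold of 0.25, and the 5 higher in aged over young ventilated libraries 9 and 31.

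Alternatives chosen after seeing the data held class shares equal or left out shallow and unnamed clusters. With shares held, the medians were -0.28 (young) and -0.0054 (aged) after ventilation, and -0.14 and 0.10 for aged over young without and with it, the gap of short members -0.55, and the counts 12 and 0. Without the shallow and unnamed clusters the young median was -0.39. In neutrophil-like cells the young median (-0.94) was -0.80 at resolution 0.18, -0.74 with at most 5% mitochondrial UMIs and -0.65 with size factors. The aged median (-0.90) was -0.62, -0.73 and -0.57 under the same, with -0.94 at 2000 or more UMIs and -0.79 as a mean over cells. Rps9 took 8.51% of member UMIs at resolution 0.18. The causes of these shifts were not tested. Of the other values, 484 stayed within a counting interval centered on the reported value, or within a set factor for counts of members, and 279 did not. Thinning left out 114 to 215 cells per library. Pooled libraries give no spread between mice, and deep libraries narrow only the counting error.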
